A study of Mus musculus with 38 samples.

Results

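The genes described here are the 10 immediate early response genes Fos, Fosb, Jun, Junb, Egr1, Egr2, Atf3, Ier2, Dusp1 and Nr4a1. They were chosen by name, and their probes were found through the transcript accession that the array files give for each spot. Each of the 10 had 1 probe, so they make up 10 of the 20018 genes with a RefSeq symbol on the array. RNA came from lungs and forestomachs of male MutaMouse animals aged about 10 weeks, a strain that carries a bacterial reporter gene for mutation assays. Animals were gavaged daily for 28 days with the polycyclic aromatic hydrocarbon dibenz(ah)anthracene (DBahA) dissolved in olive oil, or with olive oil alone, and tissues were taken 72 hours after the last dose. The vehicle group was D0, and the doses were 6.25 (D1), 12.5 (D2) and 25 (D3) mg/kg-bw/day. Lung was measured in 5, 5, 4 and 5 mice of D0 to D3. Forestomach was measured in 5, 5, 4 and 4 mice, with 2 arrays for mouse 18 of D3 that were averaged to 1 replicate. No forestomach array carries the number of mouse 20, and the labels do not settle whether one of these arrays belongs to that mouse, so D3 may hold 4 or 5 forestomach mice. With the arrays kept apart as 2 mice, 0 members were called at D3 as well.

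Immediate early genes are transcribed within minutes of a stimulus, without new protein synthesis, because the factors that switch them on are already present in the cell. Growth factors, stress and membrane depolarization reach them through MAP kinases, the serum response factor SRF with its ternary complex partners, and the cAMP response element binding protein CREB. Their transcripts are short-lived, and in whole tissues they are known to respond to handling, anaesthesia and dissection as well as to treatment. The labels state that the mice were anaesthetized and exsanguinated and the tissues snap frozen, and they give no time from death to freezing for any mouse.

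Each value is a log2 ratio of Cy5, the tissue RNA, over Cy3, a reference RNA pooled from cell lines. A value of 0 therefore means the same signal as the reference at that probe, and levels of different genes cannot be set against each other. Within a dose group, Pearson r between lung arrays lay between 0.92 and 0.96 over all probes, and they held the signal of 5 of 5 lung epithelial markers on every array. For forestomach arrays r lay between 0.66 and 0.97, and they held 6 of 6 squamous markers on every array, but they fell into separate classes by the mean of 9 glandular stomach markers. On the arrays of mice 2, 5, 8, 9 and 15 and on the first array of mouse 18 this mean lay between -3.66 and -3.09 on the log2 scale relative to the D0 mean, and on the other 13 arrays between 0.81 and 2.87. In lung the mean of 6 heart muscle markers ran from -0.93 to 2.05, with a median of 1.02 at D3 and 0.01 at D0. In such bulk samples, fewer cells of a type and less RNA per cell cannot be told apart.

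The members' probes were detected on most arrays. In lung 9 of the 10 were well above background on 19 of 19 arrays, and Junb was on 16. In forestomach Jun, Egr1, Atf3, Dusp1 and Nr4a1 were well above background on 19 of 19 arrays, Fosb on 18, Fos and Ier2 on 16, Junb on 12 and Egr2 on 6. Egr2 was not well above background on any of the 5 forestomach arrays of D1.

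The stretches before the transcription start are shown for the 3 members with 1 start site in the RefSeq promoter table and 2 or more matches to TGACG, the core of the sequence that CREB and ATF factors are known to bind. Capitals mark TGACG or its reverse complement, lower case letters the bases around it, and each stretch reads along the gene's own strand in build GRCm38.p6. The Fos stretch lies on the plus strand at chr12:85473751-85473838, that of Nr4a1 on the plus strand at chr15:101266603-101266820 and that of Dusp1 on the minus strand at chr17:26508598-26508673.
Fos: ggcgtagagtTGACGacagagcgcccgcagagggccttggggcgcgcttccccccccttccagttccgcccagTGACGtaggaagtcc
Nr4a1: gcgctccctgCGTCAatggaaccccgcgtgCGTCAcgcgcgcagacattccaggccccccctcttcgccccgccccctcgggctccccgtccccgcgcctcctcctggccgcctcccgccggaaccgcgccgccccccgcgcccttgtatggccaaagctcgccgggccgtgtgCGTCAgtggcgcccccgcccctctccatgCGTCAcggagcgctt
Dusp1: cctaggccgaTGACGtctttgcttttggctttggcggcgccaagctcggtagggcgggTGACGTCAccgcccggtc

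These windows were searched over the 250 bases before each listed start, on both strands. TGACG was present in 7 of the 8 members with a window used here (Fos, Fosb, Junb, Egr2, Atf3, Dusp1 and Nr4a1) and in 19.8% of the 27025 genes in the table. The full palindrome TGACGTCA, which holds TGACG on each strand, was present in Dusp1 alone among the 8 and in 1.77% of all genes. The AP-1 site TGACTCA was present in 0 of the 8 and in 5.16% of all genes. The CArG box, the SRF binding sequence, was searched only as CCWWWWWWGG, where W is A or T. In this exact form it was present in Egr2 alone among the 8 and in 1.62% of all genes. No window was used for Egr1 or Ier2, and sites farther than 250 bases before a start were not searched. These counts describe letters in the windows and were not tested.

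The first question was whether the members differed from vehicle in lung. Only Egr1, a zinc finger transcription factor of the early growth response family, was called in lung, and only at D3. Calling a probe required a limma p of at most 0.05 after Benjamini-Hochberg adjustment over 55681 probes together with a 1.5-fold or larger change. In lung 0 of the 10 members were called at D1, where 0.14% of all probes were called in either direction, and 0 at D2, where 0.264% were. At D3 1 of the 10 was called, against 0.639% of all probes. With 1 slope over the dose in mg/kg-bw/day, 0 of the 10 were called, against 0.413% of all probes.

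In the 5 vehicle-treated lungs the log2 ratios of Egr1 were -3.98, -3.79, -3.79, -3.70 and -3.56. At D1 they were -3.93, -3.44, -3.42, -3.06 and -2.89. At D2 they were -3.39, -3.32, -3.02 and -2.79. The D1 mice overlapped the vehicle mice through mouse 9 alone, whereas all 4 mice of D2 lay above the vehicle range. At D3 the values were -3.25, -3.17, -3.11, -3.08 and -2.80, and all 5 mice lay above the vehicle range. A dose group lay wholly above the D0 range for 2.05% of probes at D3 and for 1.58% at D2.

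Egr1 averaged -3.77 ± 0.15 (SD, n = 5) in vehicle mice. The mean was -3.35 ± 0.40 (n = 5) in mice of D1 and -3.13 ± 0.28 (n = 4) in those of D2. At D3 it reached -3.08 ± 0.17 (n = 5). The log2 fold change was 0.68 at D3 (limma, SE 0.15, adjusted p = 0.0277). It was 0.64 at D2 (SE 0.16, adjusted p = 0.131) and 0.42 at D1 (SE 0.15, adjusted p = 0.633), and neither of these passed the test. Over 25 mg/kg-bw/day the fitted slope gave a difference of 0.63 (SE 0.16, adjusted p = 0.0625). Of the D3 lungs 4 shared a slide with vehicle lungs, and 4 of 4 were higher there, by 0.46 to 1.18 on the log2 scale. At D2 3 of 3 were higher, by 0.41 to 0.78. With slide as a block the D3 difference was 0.67 (limma, adjusted p = 0.0159).

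The call of Egr1 at D3 was close to the threshold. Leaving out 1 of the 10 mice at a time ended it in 7 cases. Over all 10 such fits the limma adjusted p lay between 0.0303 and 0.0812 and the log2 fold change between 0.61 and 0.73. The heart muscle markers above were higher on several D3 lung arrays, and Egr1 differed by 0.69 with their score as a covariate (limma, adjusted p = 0.0318) and by 0.63 without the 5 lung arrays with a score above 1 (adjusted p = 0.0956), which left 2 of the 5 D3 mice.

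**Figure D1:**
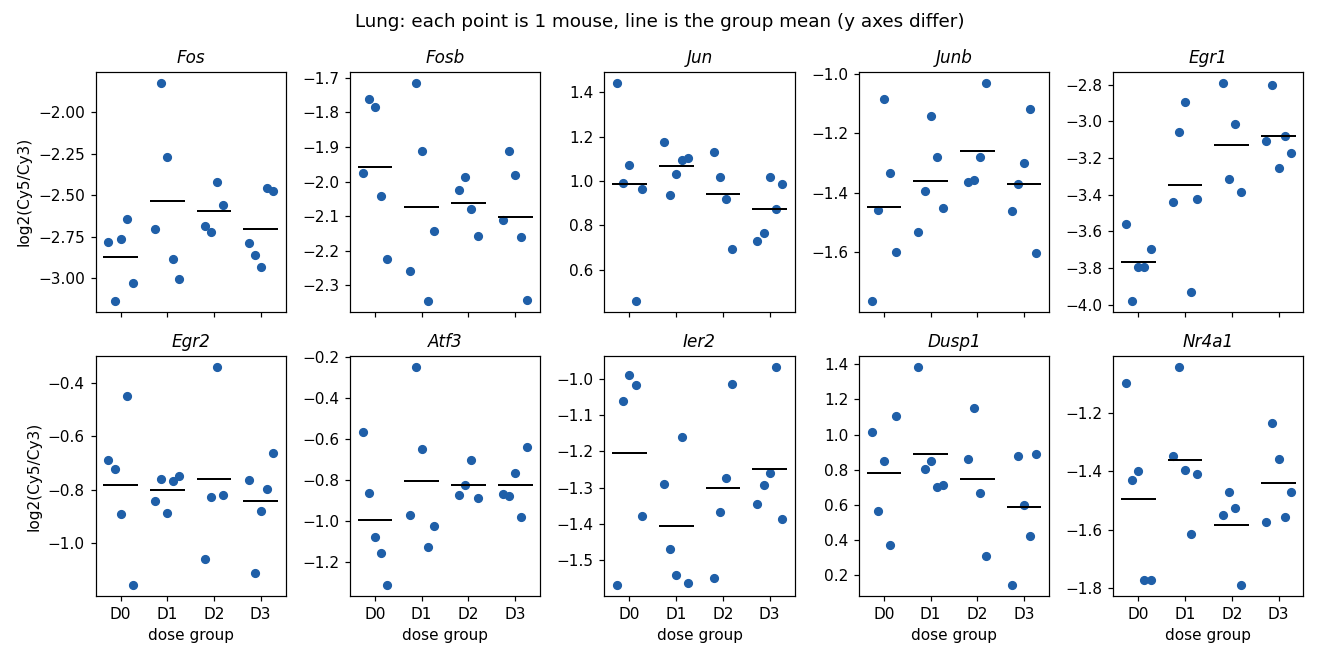
Log2 ratio of Cy5 over Cy3 (y axis, scaled for each gene) of the 10 genes in lung by dose group (x axis), with 1 point per mouse and a line at the group mean. The 5 Egr1 values at D3 lie between -3.25 and -2.80, all above the 5 vehicle values, whereas for the other 9 genes the D0 and D3 points overlap.

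The other 9 members did not pass the test in lung at any dose. The AP-1 subunits of the Fos family, Fos and Fosb, pair with Jun proteins on DNA. Fos lay between -3.14 and -2.64 at D0 and had log2 fold changes of 0.33, 0.27 and 0.17 at D1, D2 and D3 (SE 0.17 to 0.18, limma adjusted p = 0.788, 0.755 and 0.794). Mouse 7 of D1 had the highest value of the 19 lungs for 4 members, namely Fos (-1.82), Fosb (-1.71), Atf3 (-0.25) and Nr4a1 (-1.04). Fosb differed by -0.14 at D3 (SE 0.12, adjusted p = 0.713).

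The Jun family subunits showed small differences in lung. Jun differed by -0.11 at D3 (SE 0.13, limma adjusted p = 0.82) and Junb by 0.08 (SE 0.12, adjusted p = 0.872). Egr2, the second early growth response factor, differed by -0.06 (SE 0.13, adjusted p = 0.915). Atf3, a stress-induced factor of the ATF/CREB family, was above the D0 mean in 5 of 5 mice at D3 but above the D0 range in 0 of 5, with a difference of 0.17 (SE 0.15, adjusted p = 0.739). Ier2, a nuclear protein of early response, differed by -0.05 (SE 0.12, adjusted p = 0.939), and the orphan nuclear receptor Nr4a1 by 0.06 (SE 0.12, adjusted p = 0.924). Dusp1, the phosphatase that removes phosphate from MAP kinases and so limits the signal that induced it, differed by -0.20 (SE 0.18, adjusted p = 0.76).

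As a group the 10 members had a median log2 fold change in lung at D1 of 0.10, against 0.0026 over all probes. For D2 it was -0.01 against 0.0016, and for D3 0.004 against -5e-04. At D1 7 of the 10 were higher and 3 lower than vehicle, and at D2 and at D3 5 were higher and 5 lower. These comparisons share the D0 mice.

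**Figure D2:**
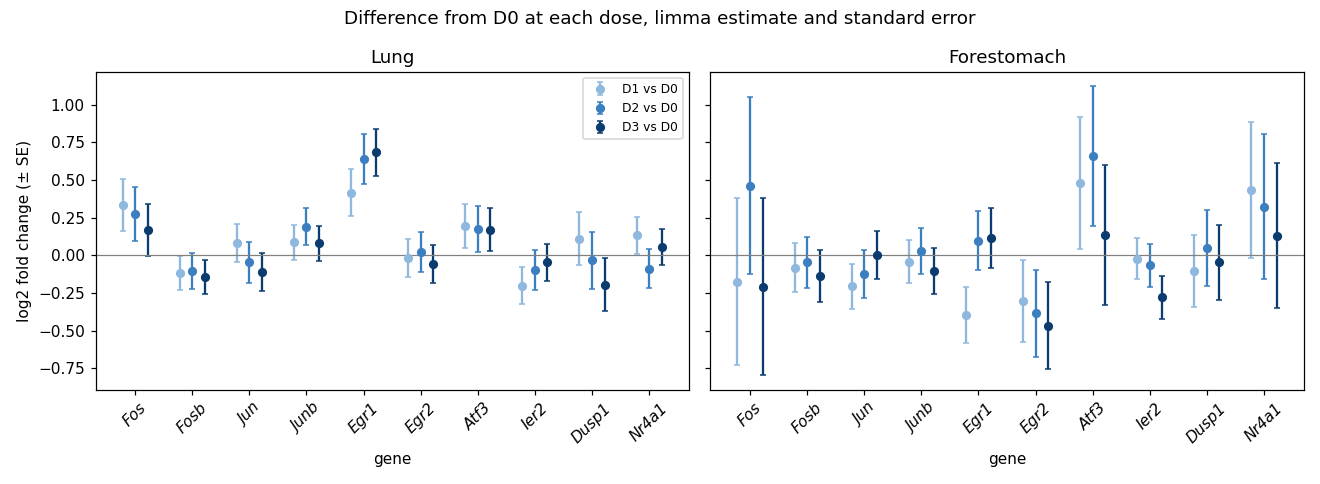
Log2 fold change against D0 (y axis, bars show the standard error of the limma fit) of the 10 genes (x axis) at D1, D2 and D3 in lung and forestomach. In lung the estimates for Egr1 are 0.42, 0.64 and 0.68 and those of the other 9 genes at D3 lie between -0.20 and 0.17, while forestomach has wider bars for Fos, Atf3 and Nr4a1.

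Genes that act with the members were examined from lists written from general knowledge. Of 30 other immediate early genes, 0 were called higher and 0 lower in lung at D1, D2 or D3. Of all probes 0.14%, 0.264% and 0.639% were called there, so 0 in this list or the 2 below is not a result about the lists. At D3 18 of the 30 were higher with a median log2 fold change of 0.07. Ier5, a gene of the Ier2 family, had an adjusted p below the threshold at each dose with a fold change below 1.5 (log2 fold changes of 0.54, 0.54 and 0.47, SE 0.09 to 0.10, limma adjusted p = 0.0086, 0.00922 and 0.00971). Plk3, a kinase of the cell cycle and stress response, did so at D3 (0.41, SE 0.09, adjusted p = 0.0307). Of 12 genes of MAP kinase feedback 0 were called, with Spry4, a Sprouty inhibitor, at 0.49 at D3 (SE 0.19, adjusted p = 0.269) and Dusp2, a nuclear MAP kinase phosphatase, at -0.24 (SE 0.13, adjusted p = 0.5). Of 15 upstream kinases and factors 0 were called, with Elk1, a partner of SRF, at -0.31 at D3 (SE 0.13, adjusted p = 0.349) and Srf itself at -0.22 (SE 0.11, adjusted p = 0.482).

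Heat shock genes also respond quickly to stress in fresh tissue. Of a list of 8, 7 were measured and 1 was called in lung at D3, where 0.639% of all probes were called. The log2 fold changes of the 7 were all below 0, with a median of -0.64 against -5e-04 over all probes. The called gene was Dnajb1, a co-chaperone of Hsp70, which fell by 1.08 on the log2 scale (limma, SE 0.24, adjusted p = 0.0222). Hspa1a, the inducible Hsp70 itself, was at -1.76 (SE 0.49, adjusted p = 0.0878), Hsph1 at -1.11 (SE 0.42, adjusted p = 0.27) and Bag3 at -0.64 (SE 0.20, adjusted p = 0.146), and none of these 3 passed the test. The mean of the list ran from -0.88 to 0.99 over the 5 vehicle lungs and from -1.10 to -0.48 over the 5 of D3, so the groups overlapped. Leaving out 1 mouse at a time ended the call of Dnajb1 in 5 of 10 cases. Over all 10 such fits the limma adjusted p lay between 0.00727 and 0.082.

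In forestomach 0 of the 10 members were called at D1, D2 or D3 or over the slope with dose, and of all probes 0% were called in each of the 4 comparisons. The limma adjusted p of every member was between 0.998 and 1. At an unadjusted limma p under 0.05 there was 1 member at D1, 0 at D2, 0 at D3 and 1 over the slope. Of all probes 4.31%, 3.12%, 3.57% and 4.69% had such a p, in the same order, so these counts are not a result about the members. The member at D1 was Egr1, with a log2 fold change of -0.40 (SE 0.19, adjusted p = 1), and over the slope it was Ier2, with -0.28 over the dose range (SE 0.13, adjusted p = 0.998). At D3 the log2 fold changes ran from -0.47 (Egr2, SE 0.29) to 0.13 (Atf3, SE 0.46), with a median of -0.08. The other lists also had 0 genes called at D3 in forestomach, namely 0 of 30 other immediate early genes, 0 of 12 feedback genes, 0 of 15 upstream genes and 0 of 7 heat shock genes.

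The first forestomach array of mouse 18 held the highest value of the 19 arrays for 5 members. Atf3 was at 2.29 on this array, against -1.06 on the second array of the same mouse number and -1.93, -1.71 and -0.92 in the other mice of D3. Nr4a1 was at 0.87 against -2.83 on the second array and -2.84, -2.45 and -2.93 in the other mice. Dusp1 was at 1.57 against -1.45 on the second array and -1.43, -0.67 and -1.12 in the others. The other members highest on this array were Fosb (-0.997) and Egr1 (-1.85, with the next array at -2.40). The mean of the 30 other immediate early genes, relative to the D0 mean, was 0.74 on it and -0.07 on the second array, and the remaining 17 arrays lay between -0.11 and 0.16.

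The glandular stomach score was -3.09 on the first array of mouse 18 and 2.49 on the second, and the arrays correlated at 0.77 across probes. The part of this difference in tissue content in the values of the members was not tested. Mouse 9 of D1, whose glandular score was -3.66, also had high values of Nr4a1 (-0.07), Atf3 (0.20) and Egr1 (-2.89) for its dose group. On the other arrays with a low glandular score Atf3 was at -1.94 and -1.85 in mice 2 and 5 of D0, at -0.85 in mouse 8 of D1 and at -0.87 in mouse 15 of D2. Nr4a1 was at -2.80 and -2.24 in mice 2 and 5. It was at -1.99 in mouse 8, the second highest of D1, and at -1.59 in mouse 15, the highest of D2. With the first array alone standing for mouse 18, Atf3 differed from vehicle at D3 by 0.55 and Nr4a1 by 0.59 (limma adjusted p = 0.999 for each). With the second alone they differed by -0.29 and -0.33 (adjusted p = 1 for each).

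**Figure D3:**
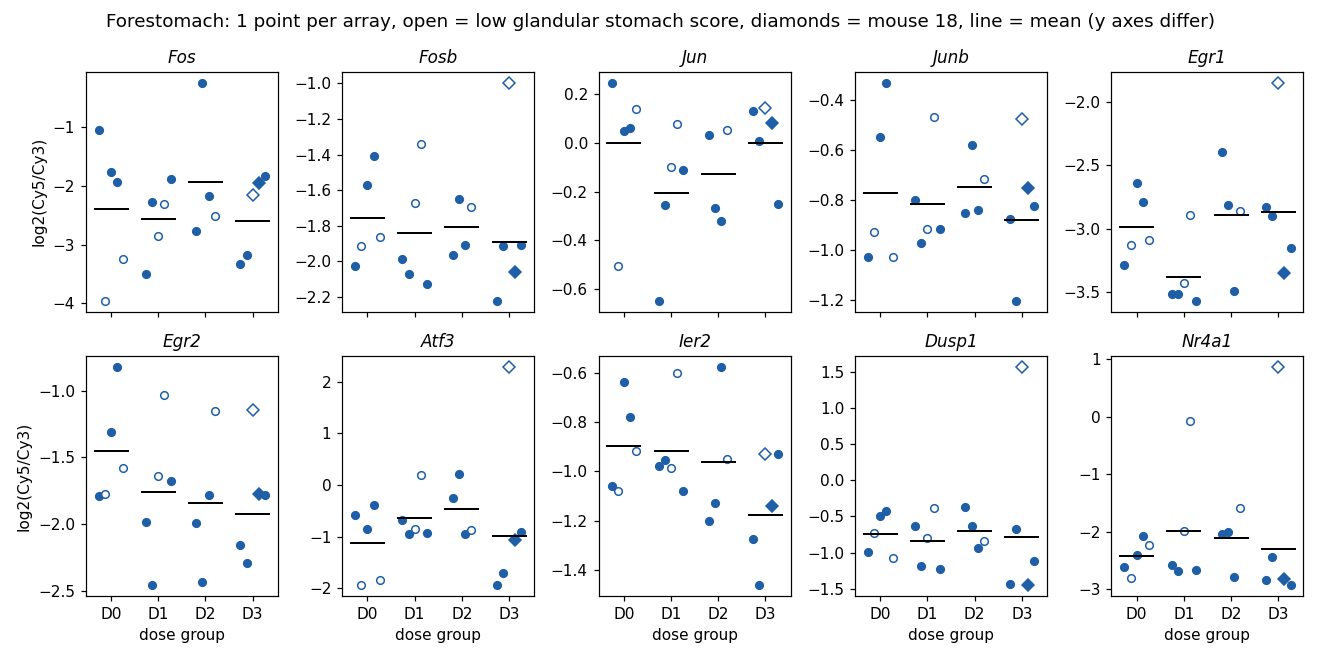
Log2 ratio of Cy5 over Cy3 (y axis, scaled for each gene) of the 10 genes in forestomach by dose group (x axis), with 1 point per array and a line at the mean over mice. Open symbols are arrays with a glandular stomach score at or below 0 and diamonds the 2 arrays of mouse 18, of which the first reaches 2.29 for Atf3, 1.57 for Dusp1 and 0.87 for Nr4a1.

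Some members varied widely between mice in forestomach, and others did not. The SD over mice within dose groups was 0.96 for Fos, 0.78 for Nr4a1 and 0.75 for Atf3, which placed them at the 98.6th, 97.5th and 97.3rd percentile of all probes, whose median SD was 0.17. Many of all probes are dim, and among the 15129 probes well above background the median SD was 0.27. Among these the percentiles of Fos, Nr4a1 and Atf3 were 98, 95.5 and 94.9, while Fosb (49.8), Jun (43), Junb (40.3) and Ier2 (34) lay below the median. These forestomach values pool mice with a low and a high glandular score. Over the 12 mice with a high score on every array the SD was 0.915 for Fos, 0.29 for Nr4a1 and 0.42 for Atf3. In lung the SD was 0.30 for Fos, 0.31 for Dusp1 and 0.27 for Egr1, at the 92.4th, 93.1st and 89.5th percentile of probes with a median of 0.15. Among the 20638 probes well above background in lung, the members lay between the 58th (Fosb) and the 87.5th percentile (Dusp1). These percentiles are a description and were not tested.

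The spread of Fos in forestomach was wide already without DBahA. In the vehicle mice 1, 3 and 4, with a high glandular score, Fos was at -1.05, -1.76 and -1.94. With a low score, mice 2 and 5 were at -3.96 and -3.25, the latter not well above background. Atf3 split the same way, at -0.58, -0.85 and -0.39 against -1.94 and -1.85. The dosed groups did not split this way. Fos at D1 was -2.86 and -2.32 in low-score mice 8 and 9, neither well above background, against -3.49, -2.28 and -1.88 in the others. At D3 it was at -2.16 on the first array of mouse 18 (low score), against -3.32, -3.19, -1.83 and -1.96 on the others. For Atf3 the low-score arrays of mouse 9 (0.20) and mouse 18 (2.29) were the highest of their groups. The highest Fos value of all was that of mouse 12 of D2, at -0.25, above the other 3 mice of that group (-2.18, -2.52 and -2.77) and with a glandular score of 1.81.

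The response of lung and forestomach at D3 was compared directly, by the contrast of the D3 difference in lung minus that in forestomach. Of the 10 members 0 were called, against 0.172% of all probes. For Egr1 the contrast was 0.57 (SE 0.26, limma adjusted p = 0.935), so its difference between tissues did not pass the test. The other 9 members had contrasts between -0.15 (Dusp1) and 0.41 (Egr2), each with an adjusted p of 1.

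Vehicle-treated lung and forestomach differed in 6 of the 10 members, 4 higher and 2 lower in lung, where 16.2% of all probes were called in this comparison. With loess the largest difference was in Dusp1, at 0.37, 0.56, 0.85, 1.01 and 1.10 in lung and -1.07, -0.99, -0.72, -0.50 and -0.43 in forestomach. The log2 difference was 1.52 (limma, SE 0.22, adjusted p = 9.47e-07). Jun was at 0.46, 0.96, 0.99, 1.07 and 1.44 in lung and at -0.51, 0.05, 0.06, 0.14 and 0.25 in forestomach. Its log2 difference was 0.99 (SE 0.14, adjusted p = 1.06e-06). With each array centred on its median in place of loess, the adjusted p of Jun was 0.0565 and it was not called.

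Nr4a1 lay between -1.77 and -1.10 in lung and between -2.80 and -2.08 in forestomach, with a difference of 0.94 (limma, SE 0.34, adjusted p = 0.0346). With the mouse as a fixed block, as both tissues came from the same animals, the adjusted p was 0.0506, and with the 2 arrays of mouse 18 kept apart it was 0.136. Egr2 lay between -1.16 and -0.45 in lung and between -1.79 and -0.82 in forestomach, where it was well above background on 1 of the 5 D0 arrays. Its difference was 0.67 (SE 0.22, adjusted p = 0.017), and among the forestomach mice with a high glandular score it was 0.53, below the fold threshold (adjusted p = 0.0485). With Feature Extraction's own log ratio the Egr2 difference was 2.41 (adjusted p = 0.000399), above that of Dusp1 (1.91).

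The 2 members lower in lung were Egr1 and Junb. Egr1 was at -3.98 to -3.56 in lung and at -3.29, -3.13, -3.09, -2.79 and -2.64 in forestomach. Its log2 difference was -0.78 (limma, SE 0.18, adjusted p = 0.000806). Junb was at -1.76 to -1.08 in lung and -1.03 to -0.33 in forestomach, well above background on 3 of 5 D0 arrays in each tissue, with a difference of -0.68 (SE 0.13, adjusted p = 0.000149). With each array centred on its median in place of loess, the differences of Egr1 and Junb shrank to -0.13 and -0.14 (adjusted p = 0.889 and 0.764). Fos (-0.48, SE 0.42), Fosb (-0.20, SE 0.14), Atf3 (0.12, SE 0.33) and Ier2 (-0.31, SE 0.13) did not pass the test, with adjusted p between 0.0834 and 0.839. Among the forestomach mice with a high glandular score, 3 of them at D0, Fos was lower in lung by a log2 difference of -1.29 (limma, adjusted p = 0.0179). This subset was chosen after seeing the data and leaves out mice 2 and 5, whose Fos values were the lowest of the vehicle forestomachs.

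**Figure D4:**
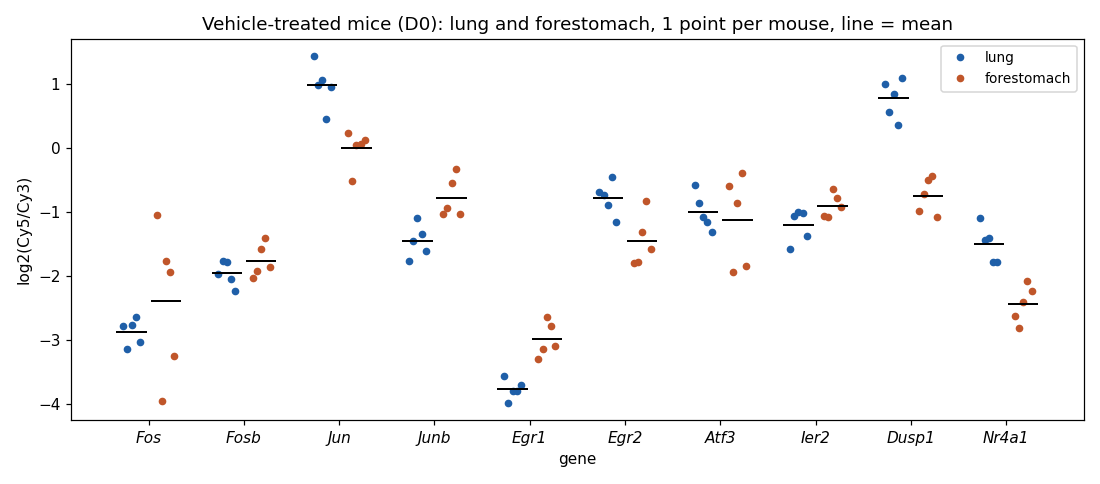
Log2 ratio of Cy5 over Cy3 (y axis) of the 10 genes (x axis) in lung and forestomach of the 5 vehicle-treated mice, with 1 point per mouse and a line at the mean. Dusp1, Jun and Nr4a1 lie higher in all 5 lungs than in any forestomach, and Egr1 and Junb lie lower in all 5 lungs. The share of all probes that separate in this way was not counted.

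The last question was whether the members rose and fell together from mouse to mouse. For each of the 45 pairs, the deviations from the dose-group means were correlated over mice, with a two-sided permutation test within dose groups. In lung 24 of the 45 pairs had a positive Pearson r and 21 a negative one over 19 mice, with a median of 0.08. After adjustment over the 45 pairs 0 passed at 0.05, with 8 at an unadjusted p under 0.05. The highest was Atf3 with Nr4a1 (r = 0.77, permutation p = 0.00153, adjusted p = 0.0601, Spearman's rho = 0.65, permutation p = 0.0073, adjusted p = 0.109). It was 0.56 without the 2 mice farthest from the median of Atf3, and 0.69 within each of the 2 scan batches with 7 and 8 mice. The third batch had 4 mice, too few for a value.

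Other pairs in lung were as close to the threshold. Junb with Ier2 had an r of 0.72 (permutation p = 0.00267, adjusted p = 0.0601, rho = 0.75, permutation p = 0.00162, adjusted p = 0.0607) but 0.08 and 0.34 within the scan batches, so this relation did not hold there. Fosb with Nr4a1 had 0.67 (permutation p = 0.00701, adjusted p = 0.079, rho = 0.72, permutation p = 0.0027, adjusted p = 0.0607), with 0.77 and 0.81 within batches. Jun with Dusp1 had 0.60 (permutation p = 0.00878, adjusted p = 0.079, rho = 0.59, permutation p = 0.0205, adjusted p = 0.22), with 0.55 and 0.85 within batches. Egr1 ran against Ier2, at -0.58 (permutation p = 0.00837, adjusted p = 0.079, rho = -0.52, permutation p = 0.0392, adjusted p = 0.22), with -0.66 in each batch. Without the 2 mice farthest from the median of the first gene these r were 0.62, 0.52, 0.56 and -0.51, in the same order. None of these passed the adjustment.

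In forestomach the 12 mice with a high glandular score on every array were used. Of the 45 pairs 26 were positive and 19 negative, with a median r of 0.15, and 0 passed after adjustment, with 3 at an unadjusted p under 0.05 by exact permutation over 1296 arrangements. The smallest p was that of Dusp1 with Nr4a1 (r = 0.73, exact permutation p = 0.0154, adjusted p = 0.538, rho = 0.78, permutation p = 0.0201, adjusted p = 0.799), which had the same sign of deviation in 11 of the 12 mice. It was 0.73 without the 2 mice farthest from the median of Dusp1 and 0.71 in the 6 mice of the largest scan batch. When arrays were centred on their median in place of loess, 45 of 45 pairs in lung and 33 of 45 in forestomach passed, with a median r of 0.84 and 0.77.

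The genes whose deviations followed the mean of the 10 members most closely in lung were Slc26a6, Galnt10, Tjap1, Tmem184b and Ifi204, with r from 0.76 to 0.78 over 19 mice among 11610 genes detected on all lung arrays. Of the other immediate early genes detected on all arrays, the closest was Ccn1, a secreted matrix protein, at rank 46 (r = 0.68), while Nr4a2, the close relative of Nr4a1, ran against the mean (r = -0.64). In forestomach they were Cmtr2, Sema4b, Ostf1, Cdk2ap2 and Tex10, with r from 0.80 to 0.84 over 12 mice among 9287 genes. Ccn1 was again the closest of the other immediate early genes, at rank 83 (r = 0.65). Among the members themselves, correlation with the mean of the other 9 ran in lung from -0.34 (Ier2) to 0.70 (Atf3) and in forestomach from -0.44 (Jun) to 0.75 (Fosb). These r were chosen as the highest of many and are a description.

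**Figure D5:**
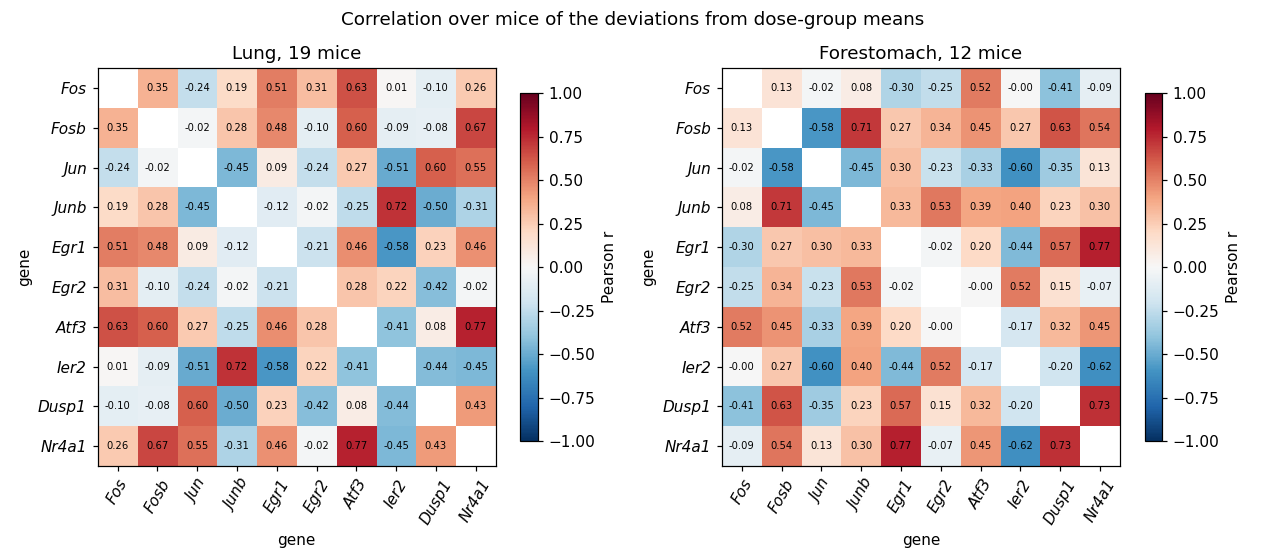
Pearson r (colour and number) for each pair of the 10 genes (both axes) over the deviations of mice from their dose-group means, for 19 mice in lung and 12 in forestomach. The highest values are 0.77 for Atf3 with Nr4a1 in lung and 0.77 for Egr1 with Nr4a1 in forestomach, and many pairs are near or below 0.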

How the data were processed

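Total RNA of 19 lung and 19 forestomach arrays was labelled with Cy5 and hybridized against a universal reference RNA in Cy3. The authors scanned 2-colour Agilent arrays and deposited, per the file headers, the median intensity of 62976 spots per array from Feature Extraction 10.7.3.1, not background-corrected and on a linear scale. That program's own log10 ratio of the dyes, after its correction, stands in the same deposited files. The authors also deposited a table of values that the comparison with the scanner files (slope 0.99 to 0.998) showed to be log2 ratios.

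Intensities were normalized by loess within each array without background correction, as the study's methods describe, control spots and outlier flags were left out (372 probe values emptied), and 59305 spots were averaged to 55681 probes. No spot was saturated. Between 30.1% and 63.8% of probes were well above background per array. The number of arrays limits the precision. Genes were named through transcript accessions in a RefSeq table of GRCm38.p6, which matched 26413 probes. The array design uses build mm9, so probe positions are left out.

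A model with 1 mean per dose group was fitted to each tissue with limma 3.58.1 (R 4.3.3 with the packages statmod 1.5.0 and, for reading files, data.table of version 1.17.8). This stands in for the MAANOVA of the methods. Lung and forestomach carry the same mouse numbers, which pair the samples per the labels. Their deviations from the group means correlated by a median of 0.186 over 18 mice, from 0.0751 to 0.249. Replicates were separate mice. The fit was tested on simulated data. All 10 members are named. From the other lists the genes called, or the 2 with the lowest p, are named, with Hspa1a, Hsph1, Bag3, Nr4a2 and Ccn1 chosen after their values were seen. The members, lists and tests were chosen with earlier results of these data known. Alternatives covered normalization, filters, blocks, covariates, the 2 arrays of mouse 18 and leaving out each mouse. Those on glandular and heart muscle RNA that leave out arrays were added after seeing the data.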

Additional observations from a re-analysis of the deposited data

Results flagged for a closer look

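In each of the 80 combinations of a member and a group of arrays, the highest or lowest array was compared with its neighbour by Dixon's criterion at the 95% level, which chance passes in about 1 in 20 groups, or 4 of 80. It was passed in 10. The combinations share arrays and so are not independent, and the 2 arrays of mouse 18 entered as separate values. An excess over 4 therefore cannot be read from this count. In forestomach D3 the first array of mouse 18 was set apart for Atf3 (2.29), Nr4a1 (0.87), Dusp1 (1.57) and Fosb (-1), where the next highest arrays were at -0.92, -2.45, -0.67 and -1.91. In forestomach D1 mouse 9 was set apart for Nr4a1 (-0.07), Atf3 (0.20), Egr1 (-2.89) and Ier2 (-0.60), each the highest of its group. The other 2 were the low Jun value of mouse 2 in forestomach D0 (-0.51, the next at 0.05) and the high Dusp1 value of mouse 6 in lung D1 (1.39, the next at 0.85). Both arrays with 4 such members had a low glandular stomach score, and the part of that score in these values was not tested.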

How the results depend on the processing

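Egr1 was the member called in lung at D3, and the count of members called there was 0 with Feature Extraction's log ratio (limma adjusted p of Egr1 = 0.0929), 0 with median centring (0.732) and 0 without the lung arrays with heart muscle RNA, a setting chosen after seeing the data. It ran from 0 to 1 when each mouse was left out. The call was lost without mouse 2, 3, 4 or 5 of D0 or mouse 16, 17 or 19 of D3 (adjusted p = 0.0564 to 0.0812). The direction of Egr1 held in all 21 alternatives, from 0.61 to 1.10. The slope with dose in lung gave 1 member with the filter on dim probes and 1 with the rank of the dose group, Egr1 each time (adjusted p = 0.0407 and 0.0196), and from 0 to 1 when a mouse was left out (1 without mouse 7, 8 or 11). Dnajb1 lost its call with median centring (-0.48, adjusted p = 0.746) and without mouse 1, 4, 5, 16 or 19. Ier5 passed the fold threshold with Feature Extraction's log ratio at all 3 doses. With median centring its limma adjusted p was 0.817, 0.658 and 0.732 at D1, D2 and D3. Without 1 mouse it rose to at most 0.0563 at D2. The adjusted p of Plk3 at D3 was 0.732 with median centring and at most 0.0858 without 1 mouse. In lung D1 and D2, in forestomach and in the contrast between tissues at D3, 0 members were called in every alternative run. The difference of vehicle lung and forestomach gave 2 members with median centring, Dusp1 and Egr2, and from 4 to 6 when a mouse was left out. Nr4a1 lost its call without mouse 1, 2 or 3 in either tissue. Egr2 lost it without mouse 1 or 2 in forestomach or 4 in lung, and Junb without mouse 4 in forestomach. With mouse as a fixed replicate block the difference gave 5 members, losing Nr4a1. With a random replicate block it gave 6, and neither block changed another call. Pairs of members that co-varied in lung numbered 5 with Feature Extraction's log ratio, 45 with median centring and from 0 to 2 when a mouse was left out (1 or 2 without mouse 1, 6, 8, 17 or 20). In forestomach they numbered 33 with median centring, 1 with slide means removed and 0 whenever a mouse was left out. The cause of these shifts was not tested. Signs of uncalled members changed in up to 48 of the 318 values of a comparison. The second brightest probe could not be used, since each member had 1 probe. Probes near background limit Egr2 and Junb, and on some arrays Fos and Ier2, in forestomach. Values with the 2 arrays of mouse 18 depend on which is used.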
